A study of Homo sapiens with 4 samples.

Results

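The cytosolic ribosomal protein genes encode the protein components of the ribosome outside the mitochondria. They were taken as the protein-coding genes whose symbols in the authors' normalized table begin with RPL or RPS and a number, with RPLP0, RPLP1, RPLP2 and RPSA, and pseudogenes were left out. The rule gave 84 of the 63856 genes in the count table, 52 of the large and 32 of the small subunit, spread over 21 chromosomes. RNA-seq had been carried out on MCF10A, a non-tumorigenic human breast epithelial cell line, in 2 variants with 2 biological replicates each. Wild type (WT) cells were unmodified, and HSF1-pLVX cells carried the human HSF1 coding sequence, delivered by a lentivirus made from the pLVX-Puro plasmid and selected with puromycin. Both variants were grown in DMEM/F12 medium with horse serum, insulin, hydrocortisone, EGF and cholera toxin, without a further treatment. Cells with the empty vector were not analysed here, so HSF1, the vector, the selection and separate culture cannot be told apart. The labels do not say whether the 2 libraries of a variant came from separate transductions. The p-values rest on the spread between these libraries, shared over all tested genes and not taken gene by gene.

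Each ribosome holds 1 copy of nearly every ribosomal protein, and the transcripts of these genes make up much of the mRNA of growing cells. Most of these mRNAs start with a C and a run of pyrimidines, the 5′ terminal oligopyrimidine (5′ TOP) motif, through which mTORC1 and the RNA-binding protein LARP1 control their translation and stability. HSF1 is the main transcription factor of the heat shock response and binds heat shock elements, arrays of GAA units in alternating orientation.

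The starts of RPL10A, RPL12, RPL3 and RPS3, which are among the genes with large differences, of RPS6, the substrate of a kinase under mTORC1, and of paralogs discussed later are shown here for these motifs. Windows of 30 bases centred on the annotated start (15 bases before it and 15 from it on) were read from RefSeq promoter sequences on GRCh38.p14, which held 67 of the 84 genes. Capitals mark the longest run of C and T that began with C, lay in the window and had at least 6 bases. The windows are written 5′ to 3′ on the strand of the gene, at chr6:35468386-35468415 (RPL10A, plus strand), chr9:127451392-127451421 (RPL12, minus strand), chr22:39319609-39319638 (RPL3, minus strand), chr11:75399503-75399532 (RPS3, plus strand), chr9:19380222-19380251 (RPS6, minus strand), chr1:6199581-6199610 (RPL22, minus strand), chr3:170870181-170870210 (RPL22L1, minus strand), chr1:153990747-153990776 (RPS27, plus strand), chr15:63157463-63157492 (RPS27L, minus strand) and chr5:172958714-172958743 (RPL26L1, plus strand).
RPL10A: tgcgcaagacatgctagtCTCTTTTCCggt
RPL12: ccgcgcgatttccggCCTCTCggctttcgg
RPL3: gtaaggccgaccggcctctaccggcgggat
RPS3: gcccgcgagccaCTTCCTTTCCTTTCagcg
RPS6: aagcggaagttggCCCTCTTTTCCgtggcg
RPL22: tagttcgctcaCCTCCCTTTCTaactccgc
RPL22L1: cgcggccgtagCTTCCTCTCTgctctcgcg
RPS27: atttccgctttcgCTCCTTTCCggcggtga
RPS27L: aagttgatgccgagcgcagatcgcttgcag
RPL26L1: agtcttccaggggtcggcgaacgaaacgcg
Such a tract was found in the windows of 52 of the 67 genes (77.6%) and of 24% of all 27305 promoters in the RefSeq table. A C followed by 4 pyrimidines exactly at the annotated start, which overlaps the tract, was found in 43 of the 67 (64.2%) and in 4.04% of all promoters. RPL3, RPS27L and RPL26L1 had no such run in their windows, whereas RPS27 and RPL26, the parent genes of the last 2, did. Where a gene was listed with several starts only the first was read, so a tract at another start would be missed.

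The libraries held between 18688109 and 24184285 counts assigned to genes. HSF1 reached 200.4 and 189.2 CPM (counts divided by the TMM-normalized library size) in the WT libraries against 982.4 and 998.6 CPM in the HSF1-pLVX libraries, a log2 fold change of 2.35. All 10 epithelial markers, a list that holds KRT17 and EPCAM, were detected, with a summed level of 22233 and 21543 CPM in WT and 11011 and 11217 CPM in HSF1-pLVX cells. Of these 10 genes, 3 were called higher and 7 lower. Of 10 fibroblast markers 3 passed the filter on low counts, of which DCN was called higher, FAP lower and COL1A1 was not called. The summed level over the list was 199 and 227 CPM in WT and 59.9 and 48.9 CPM in HSF1-pLVX cells, mostly from FAP. Of 8 immune and endothelial markers only KDR passed the filter, PTPRC had 0 counts in the 4 libraries, and the sum over the list was 3.20 and 2.42 CPM against 13.1 and 14.4 CPM. The part of these changes in the results below was not tested.

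Transcripts of ribosomal protein genes took a larger share of the counts in HSF1-pLVX cells. The 84 genes held 3.29% and 3.08% of the counts in WT replicates 1 and 2, and 6.36% and 7.37% in HSF1-pLVX replicates 1 and 2. The means were 3.19% ± 0.148 (SD, n = 2) for WT and 6.87% ± 0.711 (SD, n = 2) for HSF1-pLVX, a ratio of 2.15, and both HSF1-pLVX libraries lay above both WT libraries. Within replicate numbers the ratio was 1.93 in replicate 1 and 2.39 in replicate 2. The smallest p that an exact permutation of the 4 libraries allows is 0.33, so a permutation test of this share could not pass a threshold of 0.05, and the share was not tested. In bulk samples, a different proportion of cells of a type and a different amount of RNA per cell cannot be told apart.
The share was higher for both subunits. Large subunit genes held 2.18% and 2.05% of the counts in WT and 4.15% and 4.80% in HSF1-pLVX cells. Small subunit genes held 1.11% and 1.04% in WT and 2.22% and 2.57% in HSF1-pLVX cells. The ratio of the means was 2.11 for the large and 2.23 for the small subunit. By comparison, 78 genes of mitochondrial ribosomal proteins, which build the separate ribosome of that organelle, held 0.235% and 0.234% in WT and 0.277% and 0.281% in HSF1-pLVX cells.

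**Figure D1:**
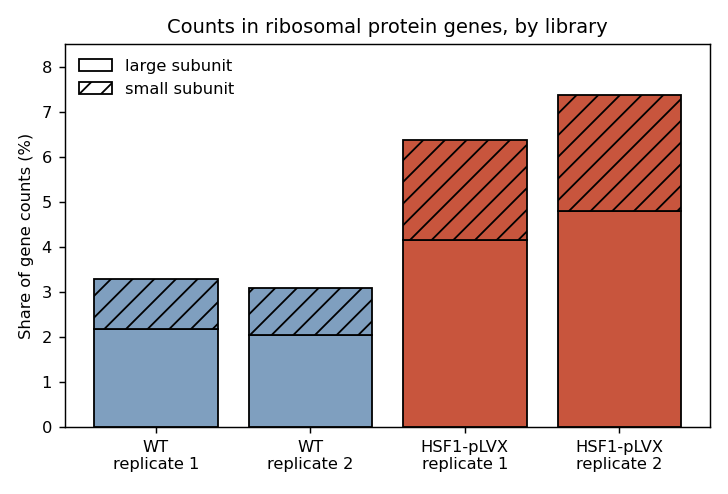
Bars show the percentage of each library's gene counts that fell in the 84 ribosomal protein genes, with the small subunit (hatched) stacked on the large subunit (plain). The 2 WT libraries reach 3.29% and 3.08%, and the 2 HSF1-pLVX libraries 6.36% and 7.37%.

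Nearly every gene of the set was higher in HSF1-pLVX cells. Of the 84 genes, 83 passed the filter on low counts and were tested with edgeR's quasi-likelihood test, fitted on 15830 genes with the replicate number as a block and Benjamini-Hochberg adjustment, with calls made at a threshold of 0.05. RPL10L, a retrogene copy of RPL10 known from testis, had 0 counts in the 4 libraries. In total 81 of the 83 genes (against 32.5% of all tested genes) were called higher in HSF1-pLVX cells, 1 was called lower (RPS27L, against 32.7% of all tested genes) and 1 was not called (RPL26L1). At least 2-fold higher were 45 of them, against 14.9% of all tested genes, and 1 was at least 2-fold lower, against 14%. In 81 genes both HSF1-pLVX libraries lay above both WT libraries, which held for 42.1% of all tested genes. Of the 72 genes with a mean of 50 CPM or more, 71 were called higher, against 31.1% of all 3984 tested genes at such levels.
The differences were also similar in size. The median log2 fold change was 1.03, a fold of 2.04, with quartiles of 0.89 and 1.14, while the median over all tested genes was 0.02 with quartiles of -0.55 and 0.62. For the large subunit the median was 0.996, with 50 of 51 tested genes called higher and 25 at least 2-fold. For the small subunit it was 1.04, with 31 of 32 called higher and 20 at least 2-fold. Outside the paralogs with an L after the number, all 77 genes were called higher, with an SD of their log2 fold changes of 0.23 over genes.

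**Figure D2:**
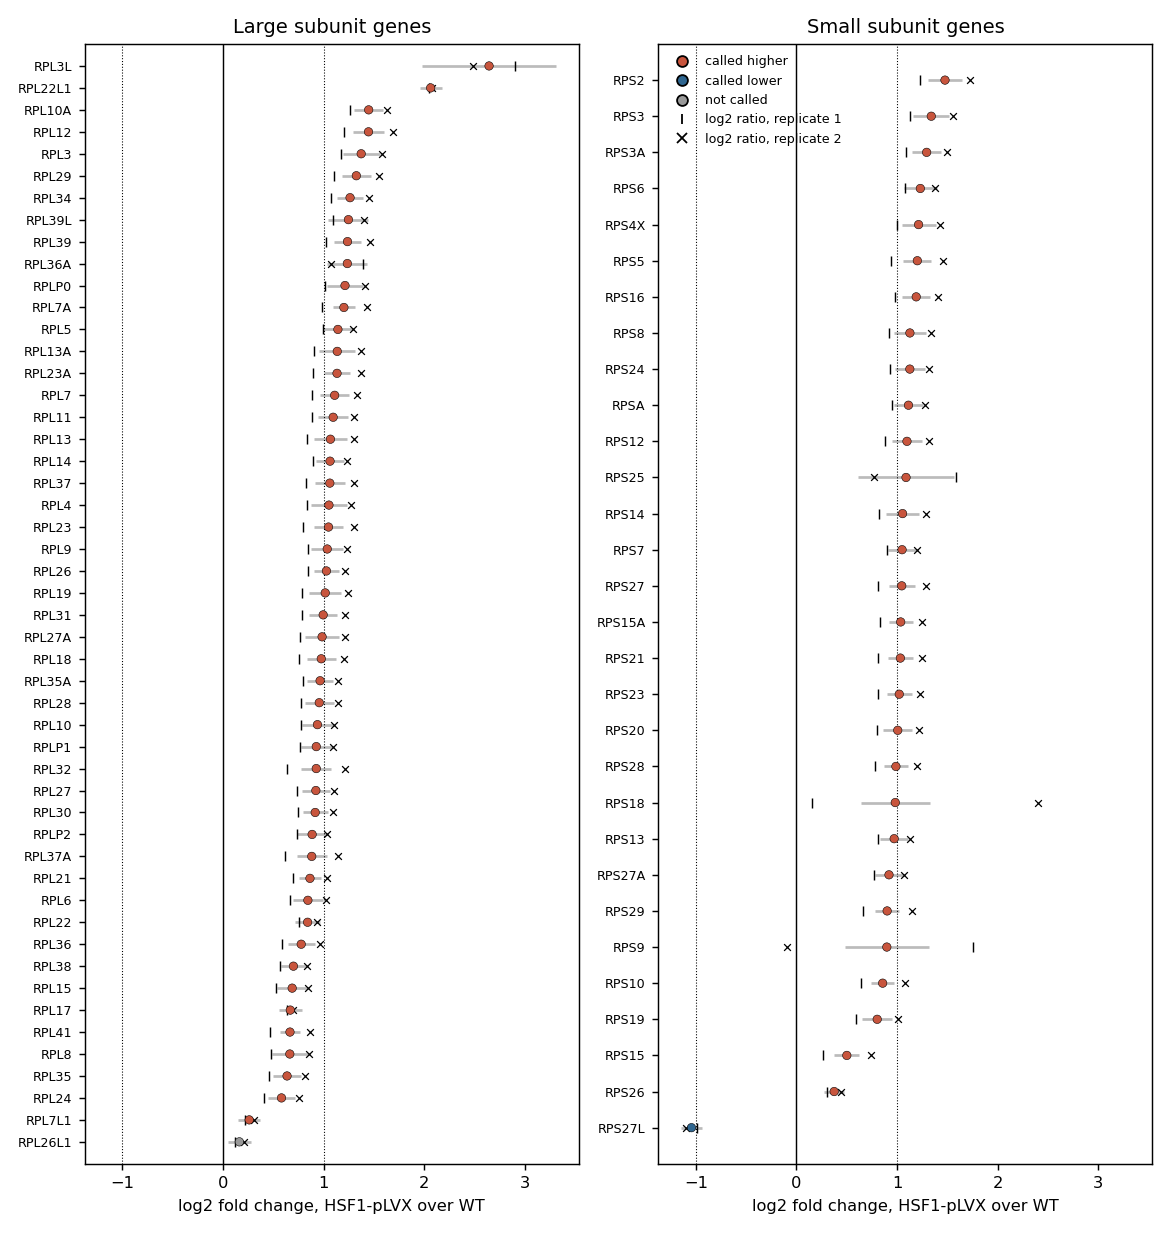
Circles show the fitted log2 fold change (HSF1-pLVX over WT) of single tested genes with a bar of 1 SE, tick marks and crosses the log2 ratio within replicates 1 and 2, and dotted lines a 2-fold change. Most genes sit near 1, with replicate 2 to the right of replicate 1, and RPS27L alone was called lower.

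The replicates differed in the size of the rise. Over the 83 genes the median log2 difference between the variants was 0.81 in replicate 1 and 1.22 in replicate 2, and 78 genes had the higher ratio of HSF1-pLVX to WT in replicate 2. The 5 others were RPL36A, RPL3L, RPS25, RPS9 and RPS27L, the last of which fell further in replicate 2. Between the WT libraries the median difference of replicate 2 from replicate 1 was -0.13, with 8 of 83 genes above 0, and between the HSF1-pLVX libraries it was 0.26, with 79 of 83 genes above 0. Over all tested genes these medians were 0.01 and -0.01. The genes shifted in one direction between replicates as well as between variants, and the difference between variants was the larger of the shifts. Over the 72 genes at 50 CPM or more, the log2 ratios of replicates 1 and 2 correlated across genes with a Pearson r of 0.96 and a Spearman rho of 0.94, but the genes are not independent and share the 4 libraries.
In fits without the block that left out a library, 24 genes were at least 2-fold higher when HSF1-pLVX replicate 2 was omitted and 62 when HSF1-pLVX replicate 1 was omitted. The numbers called higher in these fits were 76 and 78, respectively.

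The order of the levels was largely kept. Per kilobase of the annotated canonical transcript, RPL8, a protein of the peptidyl transferase centre, had the highest level in both variants, with means of 1320 CPM per kilobase in WT and 2097 in HSF1-pLVX cells. It was followed in WT by RPLP2 (1076) and RPS12 (971 CPM per kilobase). In HSF1-pLVX cells RPS12 (2093) and RPL3 (2065 CPM per kilobase) came next to RPL8. These values depend on the transcript taken as canonical, whose length ran from 295 to 7573 bases. Across the 72 genes at 50 CPM or more the log2 levels in the 2 variants correlated with a Pearson r of 0.95 and a Spearman rho of 0.97, and the log2 fold change had an r of 0.28 with the WT level per length, of -0.19 with transcript length and of 0.01 with GC content, given as descriptions across genes.

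**Figure D3:**
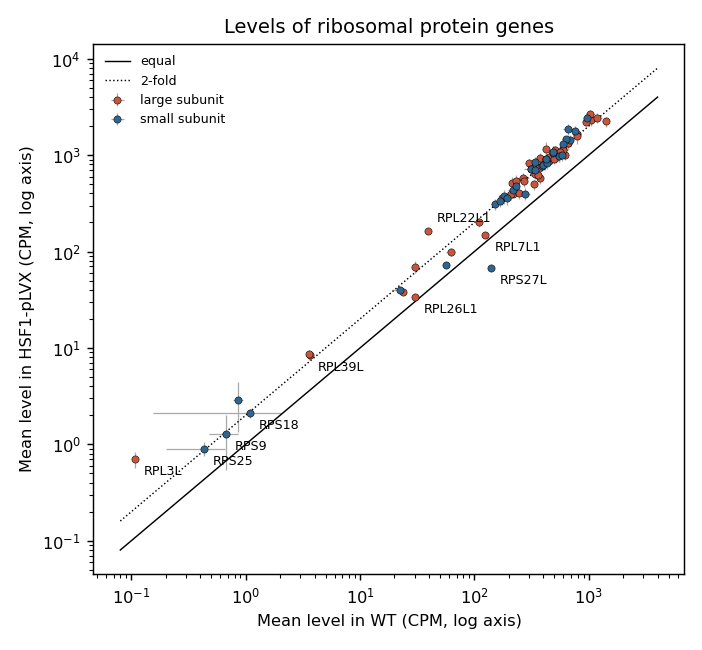
Each point is 1 ribosomal protein gene, with its mean level in WT on the x axis and in HSF1-pLVX cells on the y axis (CPM, both axes log, bars ± SD of 2 libraries). Most points lie along the dotted 2-fold line over the whole range of levels, RPL22L1 lies above it, and RPS27L lies under the solid line of equality.

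In the small subunit, RPS2 (ENSG00000140988.15, chromosome 16 of hg38, 1962052 to 1964860) and RPS3 (ENSG00000149273.14, chromosome 11, 75399486 to 75422280) rose most among the well-expressed genes, and both proteins line the channel where mRNA enters. RPS2 was at 717 and 611 CPM in WT and at 1676 and 2022 CPM in HSF1-pLVX cells. Its log2 fold change was 1.48 with an SE of 0.17 (edgeR, adjusted p = 2.69e-17). The levels of RPS3 were 1018 and 908 CPM in WT and 2224 and 2661 CPM in HSF1-pLVX cells, a log2 fold change of 1.34 (SE 0.18). In both genes the variants did not overlap.
RPS6, the protein phosphorylated by S6 kinase when mTORC1 is active, was at 656 and 599 CPM in WT and at 1388 and 1559 CPM in HSF1-pLVX cells, and its log2 fold change was 1.23 (SE 0.16). RPSA, also known as the laminin receptor, rose by 1.11 on the log2 scale, from 443 and 400 to 854 and 970 CPM. RPS12 rose by 1.10, from 502 and 475 to 926 and 1180 CPM. For RPS19, the gene most often mutated in Diamond-Blackfan anaemia, the rise was 0.80, from 601 and 558 to 907 and 1122 CPM. All of these were called higher with no overlap between the variants.
The smallest rises in this subunit were those of RPS26 and RPS15. RPS26, which sits at the mRNA exit, was at 58.4 and 54.6 CPM in WT and at 72.1 and 74.3 CPM in HSF1-pLVX cells, a log2 fold change of 0.37 (SE 0.10). RPS15 was at 297.5 and 261.1 CPM against 356.6 and 435.9 CPM, a log2 fold change of 0.50 (SE 0.13). Both were called higher, and RPS15 was no longer called without HSF1-pLVX replicate 2, at a log2 fold change of 0.36 (edgeR, adjusted p = 0.0915).

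In the large subunit, RPL10A (ENSG00000198755.10, chromosome 6 of hg38, 35468408 to 35470785) is part of the stalk at the tRNA exit side, and RPL12 (ENSG00000197958.12, chromosome 9, 127447674 to 127451405) forms the base of the stalk that recruits elongation factors. RPL10A was at 314 and 285 CPM in WT and at 754 and 884 CPM in HSF1-pLVX cells, with a log2 fold change of 1.45 (SE 0.14, edgeR, adjusted p = 1.83e-23). RPL12 was at 449 and 403 CPM against 1032 and 1301 CPM, also with a log2 fold change of 1.45 (SE 0.15). The starts of both genes held a pyrimidine tract, as printed above.
RPL3 (ENSG00000100316.15, chromosome 22, 39312882 to 39320389), a protein near the peptidyl transferase centre, was at 1097 and 967 CPM in WT and at 2470 and 2883 CPM in HSF1-pLVX cells, a log2 fold change of 1.37 (SE 0.18). RPL10, which joins the large subunit late in its assembly, rose by 0.94, from 614 and 583 to 1050 and 1252 CPM. In neither of these genes did the variants overlap.
Among the smaller rises was that of RPL8, the gene with the highest level per length, from 1479 and 1345 to 2058 and 2429 CPM, a log2 fold change of 0.66 (SE 0.18). RPL24, a protein of a bridge between the subunits, rose by 0.58, from 341 and 319 to 452 and 540 CPM. RPL35, found near the exit of the peptide tunnel, rose by 0.64, from 383 and 364 to 525 and 642 CPM. RPL41, the shortest ribosomal protein, had a log2 fold change of 0.67, from 66.5 and 58.2 to 92.1 and 106.0 CPM.

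The stalk proteins RPLP0, RPLP1 and RPLP2, which contact elongation factors, all rose. RPLP0 was at 1016 and 894 CPM in WT and at 2053 and 2376 CPM in HSF1-pLVX cells, with a log2 fold change of 1.21. RPLP1 was at 574 and 558 against 974 and 1189 CPM (0.93), and RPLP2 at 505 and 490 against 843 and 1001 CPM (0.89 on the log2 scale).
RPL5 and RPL11 enter the ribosome together with a small ribosomal RNA, and free of the ribosome they bind the p53 inhibitor MDM2. RPL5 rose by 1.14 on the log2 scale (SE 0.15), from 523 and 497 to 1040 and 1219 CPM. RPL11 rose by 1.09 (SE 0.15), from 531 and 487 to 982 and 1201 CPM. The SEs of this pair overlapped each other and the median of the set.

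The genes that stood apart were paralogs, extra copies of a ribosomal protein gene with an L after the number. RPS27L (ENSG00000185088.13, chromosome 15 of hg38, 63125872 to 63158021), a gene known to be induced by p53, was at 138.0 and 139.9 CPM in WT and at 69.5 and 65.4 CPM in HSF1-pLVX cells. It fell by 1.04 on the log2 scale (SE 0.11, edgeR, adjusted p = 8.37e-22), and the variants did not overlap. Its parent RPS27 moved the other way, from 240.8 and 220.7 to 421.2 and 537.8 CPM, a log2 fold change of 1.05. Per length of transcript, RPS27L made up 3.20% and 3.52% of the pair in WT and 0.941% and 0.696% in HSF1-pLVX cells. The size of these parts depends strongly on the canonical transcripts, which had 6110 bases for RPS27L and 352 for RPS27. The fall of RPS27L was called in every alternative fit, but it was slightly under 2-fold with library size only (-0.98), with upper quartile normalization (-0.96), with length and GC trends removed (-0.98) and without HSF1-pLVX replicate 2 (-0.99).
RPL22L1 (ENSG00000163584.17, chromosome 3, 170864875 to 170870483), which is repressed by its parent RPL22 in other cells, was at 37.6 and 41.1 CPM in WT and at 155.6 and 173.4 CPM in HSF1-pLVX cells. Its log2 fold change of 2.06 (SE 0.11, edgeR, adjusted p = 2.38e-75) was the largest among the genes above 50 CPM on average. RPL22 itself rose by 0.84, from 225 and 214 to 379 and 408 CPM. The paralog therefore made up 15.3% and 17.2% of the pair per length in WT and 30.8% and 31.5% in HSF1-pLVX cells. Both starts held a pyrimidine tract.
RPL26L1 (ENSG00000037241.7, chromosome 5, 172958729 to 172969771) was at 30.7 and 29.5 CPM in WT and at 33.3 and 34.2 CPM in HSF1-pLVX cells. Its log2 fold change of 0.16 (SE 0.11) did not pass the test (edgeR, adjusted p = 0.194), apart from the fit with upper quartile normalization (0.25, adjusted p = 0.0416). RPL26 rose by 1.03, from 178 and 170 to 320 and 394 CPM, so the paralog's part of the pair was 11.2% and 11.3% in WT and 7.07% and 5.98% in HSF1-pLVX cells.
RPL7L1, a protein of ribosome assembly, was at 125.5 and 124.5 CPM in WT and at 146.1 and 153.7 CPM in HSF1-pLVX cells, a log2 fold change of 0.26 (edgeR, adjusted p = 0.0257) that was not called with DESeq2, without the filter on low counts, without WT replicate 2 or without HSF1-pLVX replicate 2. RPL7 rose by 1.11, from 451 and 397 to 835 and 1000 CPM. RPL7L1 made up 7.08% and 7.92% of its pair per length in WT and 4.58% and 4.04% in HSF1-pLVX cells. Here too the size depends on the canonical transcripts, of 4499 bases for RPL7L1 and 1233 for RPL7.
RPL39L, known mainly from testis, rose by 1.25 on the log2 scale and RPL39 by 1.24. RPL39L was at 3.68 and 3.50 CPM against 7.85 and 9.26 CPM, and it made up between 0.811% and 0.854% of the pair in the 4 libraries. RPL3L, a muscle form of RPL3, had 2 and 2 counts in WT and 20 and 12 counts in HSF1-pLVX cells. Its log2 fold change was 2.64 (SE 0.67). With a floor of 3 counts put in for each WT library the fold was 4.36, which is not a lower bound. RPL3L was not called with DESeq2 (adjusted p = 0.0955). No difference between a paralog and its parent was tested directly.

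**Figure D4:**
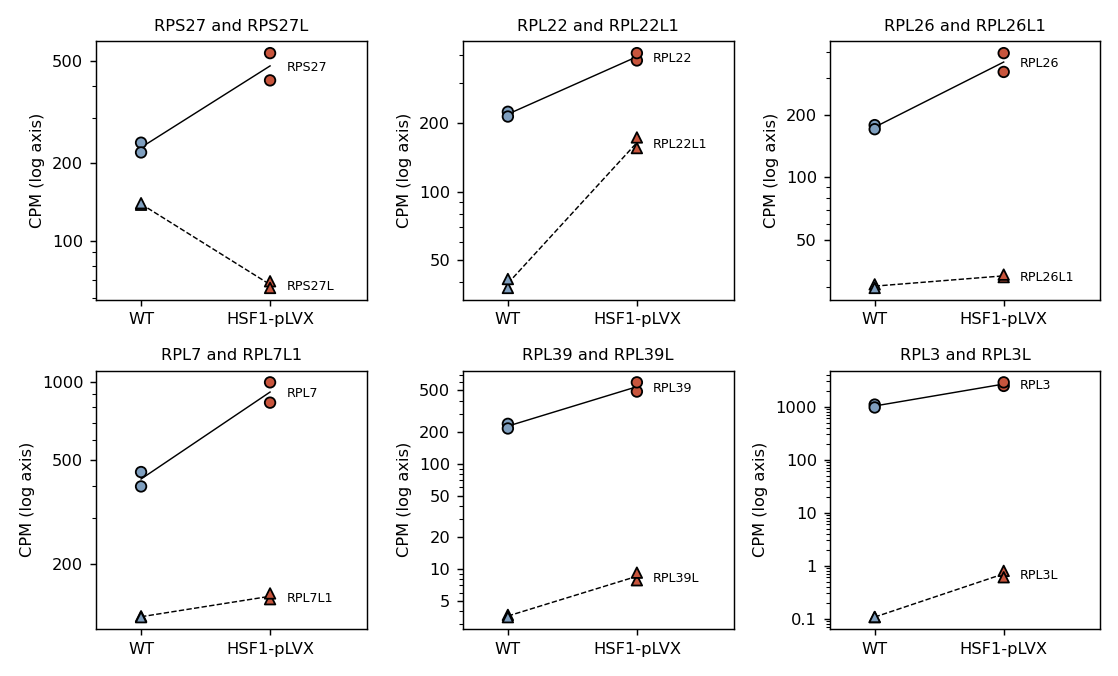
Each panel shows 1 pair, with the parent gene as circles joined by a solid line between means and the paralog as triangles joined by a broken line, in CPM on a log axis for the 2 libraries of each variant. RPS27L falls while RPS27 rises, RPL22L1 rises more steeply than RPL22, and RPL26L1 and RPL7L1 change least while their parents rise.

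The counting of 8 genes was marked as uncertain, because of repeated rows or a readthrough gene of their own name. Genes such as RPS9, RPS18, RPS25 and RPL7A stood in several rows of the authors' normalized table (10 for RPS9 and 6 for RPS18), and RPL17, RPS10 and RPL36A shared bases with a readthrough gene of their own name, as RPS10 did over 44.6% of its counted bases. RPS9, RPS18 and RPS25 were listed at levels between 0.266 and 2.27 CPM, although ribosomes need all of them. The libraries of RPS9 overlapped, with 0.533 and 0.807 CPM in WT and 1.79 and 0.755 CPM in HSF1-pLVX cells, and its call (edgeR, adjusted p = 0.0470) was lost in the fit without the block (adjusted p = 0.0644), as was that of RPS18 (adjusted p = 0.0648). Without these 8 genes, 73 of 75 were called higher. Genes outside these 8 are not free of such doubt, since some shared counted bases with other genes. Examples are RPS2 (25.6%), RPL13A (17.3%) and RPL26 (14.6%) on the same strand and RPL10 (52.7%) on the opposite strand.
Pseudogenes are another place where reads of these genes can be counted. For 4 of the genes with uncertain counting (RPL7A, RPL17, RPL36A and RPS18) the pseudogene rows named after them held more counts than the gene. Among genes not marked so, the pseudogene rows of RPL21, RPS28, RPS27 and RPS2 reached 90.8%, 36.1%, 33.5% and 25.8% of the gene's own counts. Over 1586 such rows, named after 77 genes, the share of counts was 0.189% and 0.174% in WT and 0.366% and 0.431% in HSF1-pLVX cells. Of 154 rows tested, 109 were called higher (against 32.5% of all tested genes) and 8 lower (against 32.7%), with a median log2 fold change of 1.002. Together with these rows the share of the set was higher by a ratio of 2.16.

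The study called a gene up-regulated at a ratio above 2 in each of its replicates. This rule was applied to each row of the deposited log2-like values. It was passed in 12 of the 101 rows of the set, against 5% of 22321 rows, and so by 12 of the 84 genes. These were RPL3, RPL10A, RPL12, RPL22L1, RPL29, RPL34, RPS2, RPS3, RPS3A, RPS6, RPS18 and RPS25, the last 2 in a row other than that of the counted gene. RPS27L was the only one of the 84 down-regulated by the rule (1 of the 101 rows), with ratios of 0.490 and 0.468, against 6.42% of all rows.

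Sequence features of the starts were compared with the fold changes as a description. The median log2 fold change was 1.03 over the 52 genes with a pyrimidine tract, all 52 called higher, and 0.91 over 14 tested genes without one, of which 12 were called higher. Those not called higher were the paralogs RPS27L (-1.04) and RPL26L1 (0.16), and the paralog RPL7L1 (0.26) also had no tract. For the heat shock element, pairs of units were searched as GAANNTTC and TTCNNGAA (each its own reverse complement, so that both strands are covered) from 250 bases before to 50 after the start. Either pair stood in 11 of the 67 promoters (16.4%) and in 13.7% of all promoters, and a run of such units longer than a pair stood in 0 of the 67 and in 0.487% of all promoters. The median log2 fold change was 0.96 over the 11 genes with a pair and 1.02 over 55 tested genes without one. As examples, those before RPL22 and RPLP2 are printed with the pair in capitals, at chr1:6199723-6199752 (RPL22, minus strand) and chr11:809749-809778 (RPLP2, plus strand).
RPL22: cgcgttttgcaTTCAGGAAaaaccaatcgc
RPLP2: agagcagtcacTTCCGGAActgctgccctt
Within 28 of the genes lie 60 genes of snoRNAs, which guide the modification of ribosomal RNA. The 28 host genes were all called higher, with a median log2 fold change of 1.06, and of 55 tested genes without a snoRNA 53 were called higher, with a median of 0.996. The exceptions were again the paralogs RPS27L and RPL26L1.

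Other genes of translation were examined as lists, whose counts stand beside the 32.5% of all tested genes called higher and the 32.7% called lower. The list closest to the ribosomal proteins held 24 further genes with 5′ TOP mRNAs, mainly elongation and initiation factors. Of 22 tested, 21 were called higher and 0 lower, with a median log2 fold change of 1.07. EEF1G and EIF3K were listed at 0 counts in the 4 libraries. HNRNPA1, a splicing factor, rose most, by 1.95, from 231 and 236 to 855 and 952 CPM. EEF1D, a subunit of the exchange factor of elongation, had a log2 fold change of 1.91 at levels between 0.377 and 3.07 CPM. EEF1A1, which brings tRNA to the ribosome, rose by 1.35, from 3592 and 3185 to 8115 and 9132 CPM. EIF3A, a scaffold of initiation factor eIF3, was not called (edgeR, adjusted p = 0.985), with 487 and 422 CPM in WT and 449 and 460 CPM in HSF1-pLVX cells.
Of 26 further initiation factors, 9 were called higher (against 32.5% of all tested genes) and 4 lower (against 32.7%), with a median log2 fold change of 0.20. The largest changes were those of EIF4A1, a helicase of the cap-binding complex (0.77), EIF3M (0.65), EIF2B2, a subunit of the exchange factor of eIF2 (-0.78), and EIF4G1, the scaffold of the cap-binding complex (-0.58). EIF4A1 was listed at only 10.7 and 14.2 CPM in WT and 22.2 and 19.9 CPM in HSF1-pLVX cells. Its log2 ratios in replicates 1 and 2 were 1.05 and 0.49. Of 75 tested mitochondrial ribosomal protein genes, 29 were called higher (against 32.5% of all tested genes) and 11 lower (against 32.7%), with a median of 0.17, among them MRPL11 (1.20), MRPS6 (1.14), MRPS36 (-0.95) and MRPS24 (-0.75).
Among 14 tested genes of mTORC1 and LARP1, 4 were called higher (against 32.5% of all tested genes) and 7 lower (against 32.7%), with a median of -0.10. The repressors of cap-dependent initiation that mTORC1 phosphorylates moved in different directions. EIF4EBP1 rose by 1.71, from 34.6 and 30.8 to 98.5 and 116.2 CPM. EIF4EBP2 fell by 1.17, from 165 and 163 to 79.9 and 66.7 CPM. EIF4EBP3 rose by 2.78, at levels between 0.373 and 3.98 CPM. MTOR, the kinase itself, fell by 0.54, from 138 and 119 to 89.4 and 86.4 CPM, and LARP1 was not called, with a log2 fold change of 0.14 (edgeR, adjusted p = 0.367).
Genes of ribosome assembly rose in part. Of 25, 18 were called higher and 5 lower, with a median of 0.58. NOB1, the nuclease that completes the small subunit RNA, rose by 1.76, from 33.67 and 29.98 to 98.5 and 117.8 CPM. FBL, the methyltransferase of box C/D snoRNPs, had a log2 fold change of 3.02 at levels between 0.108 and 2.01 CPM. SBDS, which releases EIF6 from the large subunit, fell by 1.26, from 143 and 153 to 60.5 and 63.1 CPM, and RRN3, an initiation factor of RNA polymerase I, fell by 0.89. Of 7 chaperones of single ribosomal proteins, PDCD2 (0.32, a chaperone of RPS2) and BCCIP (0.28, of RPL23) were called higher and HEATR3 (-0.46, of RPL5) and TSR2 (-0.29, of RPS26) lower.

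**Figure D5:**
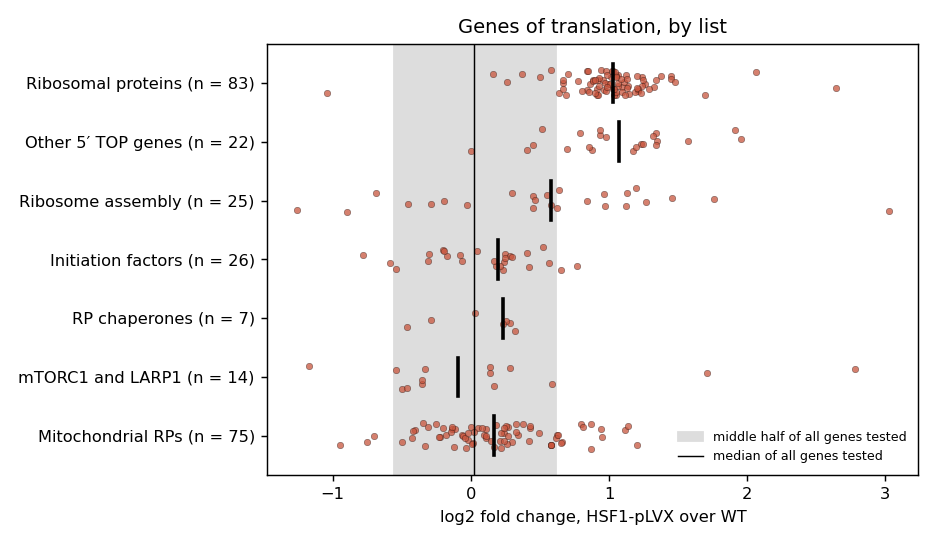
Points are the log2 fold changes (HSF1-pLVX over WT) of the tested genes of each list, spread vertically at random, with thick bars at the list medians and the range between the quartiles of all tested genes in grey. The ribosomal proteins and the other 5′ TOP genes centre near 1, with medians of 1.03 and 1.07, while the medians of the initiation factors, mTORC1 genes and mitochondrial ribosomal proteins lie between -0.10 and 0.20.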

How the data were processed

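The authors deposited raw counts per gene for 4 libraries, made from total RNA depleted of ribosomal RNA by aligning paired-end reads of 76 bp to hg38 with HISAT2 2.0.5, followed by SAMtools 1.13 and featureCounts 1.6.5. The table also lists counted bases per gene. The authors also deposited log2-like values normalized with DESeq2 1.32.0, used here only to choose genes and for the study's ratio rule. The strand, overlap and multi-mapping settings are not given in the sources used here. Genes were identified by Ensembl ID, with symbols, canonical transcript lengths and overlaps from GENCODE.

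Tests on the counts used edgeR 4.0.16 under R 4.3.3 (TMM, filterByExpr, quasi-likelihood F test, replicate number as a block, Benjamini-Hochberg over 15830 genes). The block follows the study, which takes ratios within replicate numbers. The sources do not say what a number shares, and same-numbered deviations correlated with r = 0.000143 over the tested genes, -0.113 above 8 CPM and -0.195 over the ribosomal protein genes. The prior degrees of freedom were infinite with the block and 11.94 without it, so blocked p-values rest on a spread shared between genes. Replicate counts differed by more than sampling noise, with a chi-square per degree of freedom of 6.62 in WT and 8.04 in HSF1-pLVX over all genes. Over the ribosomal protein genes alone it was 5.88 in WT and 11.1 in HSF1-pLVX. Library totals of 18688109 to 24184285 limit precision for genes with few counts. The floor of 3 counts is a set value that bounds neither the counting error nor the spread between libraries.

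The genes and lists were chosen with earlier results of these data known. Genes named were the 8 largest and 8 smallest log2 fold changes, the 5 highest levels per length in WT, the paralogs with their parents, 11 preset genes, and the 2 largest changes in each direction of the other lists; EEF1A1, EIF3A, LARP1, EEF1G and EIF3K were added after their values were seen. Some genes that meet this rule are not reported here. limma 3.58.1 (voom), DESeq2 1.42.0 and other normalizations, filters and library sets were alternatives. The fitting was tested on simulated data.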

Additional observations from a re-analysis of the deposited data

Results flagged for a closer look

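Pseudogene rows named after the ribosomal protein genes, which no comparison of the genes themselves uses, also held counts: their share was 2.19 times as high in HSF1-pLVX as in WT cells (0.398% ± 0.0459 against 0.182% ± 0.0106, SD, n = 2 each), with ratios of 1.93 and 2.47 within replicates 1 and 2. Whether these counts come from the pseudogenes or from reads of the parent genes was not tested.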

How the results depend on the processing

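Between 76 and 82 of the 83 ribosomal protein genes were called higher over the alternative normalizations, filters, tests, thresholds and library sets, 73 of 75 without the genes of uncertain counting, and none of the 83 changed direction in a refit. The fit with no replicate block called 79 higher and 46 at least 2-fold higher, with a median log2 fold change of 1.04. Same-numbered samples are not known to share a culture or day. The sole gene at least 2-fold lower, RPS27L, became 0 such genes with library size only, with upper quartile normalization and with length and GC trends removed. Upper quartile normalization also moved the median of all genes to 0.107 on the log2 scale. Fits without 1 library had no block, and the lone library of a variant was assumed to vary like the other variant. They gave 76 to 79 genes called higher, 24 to 62 at least 2-fold higher, 0 to 1 at least 2-fold lower, medians of 0.89 to 1.16 and share ratios of 1.995 to 2.31. In these fits initiation factors called higher ranged from 4 to 10 and lower from 2 to 6, mTORC1 genes called lower from 3 to 7, chaperones called higher from 0 to 3 and lower from 0 to 2, assembly genes called lower from 3 to 5, and mitochondrial ribosomal protein genes called higher from 17 to 29 and lower from 6 to 11. Chaperones called lower were 0 with library size only and 1 with upper quartile normalization, and chaperones called higher and lower were 1 and 1 without the filter or at an adjusted p of 0.01, and 0 and 0 with DESeq2. Mitochondrial ribosomal protein genes called lower were 7 with library size only, and with DESeq2 18 were called higher and 4 lower. Initiation factors called higher were 14 with upper quartile normalization and 5 with DESeq2. The number of other 5′ TOP genes called higher also became smaller when some library was left out, and 0 were called lower in every alternative. The cause was not tested. Of the single genes followed, 35 values lost their call under an alternative, 1 gained it (RPL26L1 with upper quartile normalization) and 705 kept it or stayed uncalled. Leaving out the 8 genes of uncertain counting was chosen after seeing the data. Genes at about 1 CPM, such as RPS9, RPS18 and RPS25, rest on few counts and lost their calls most often.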
